A study of Mus musculus with 7 samples.

Results

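The genes described here encode the integrins, the laminins and the nidogens, and were chosen by symbol from the gene count table of mouse kidneys: every protein-coding row named as an integrin alpha or beta gene, a laminin alpha, beta or gamma chain, or a nidogen. The choice took 43 of the 42256 rows and used no measured value. Of these, 27 encode integrin subunits, 11 laminin chains and 2 nidogens. A further 3, Itgb1bp1, Itgb1bp2 and Itgb3bp, share the integrin prefix but encode proteins named for binding an integrin, not subunits, and are kept apart below. A filter on low counts left 41 of the 43 to test, among 17964 genes in all. It removed Itgad, with at most 3 counts in any library, and Itgb2l, with at most 5.

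RNA was sequenced from a kidney of each of 7 adult males of mixed 129S1/Sv x C57BL/6 strain background, 4 labelled CDH11-/- and 3 labelled CDH11+/+, which are the knockout and wild-type genotypes of the adhesion molecule cadherin-11. Every mouse, whichever its genotype, had undergone uninephrectomy (removal of a kidney) and an infusion of angiotensin II, a blood-pressure-raising peptide, delivered at 800 ng/kg/min by osmotic pump until the kidneys were taken 4 weeks later. There was no uninjured group, so each comparison is between genotypes within injury, and it asks how loss of cadherin-11 bears on the injured kidney. The RNA came from whole kidney tissue, and the design gives each library its own mouse.

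Basement membranes are sheets of matrix under epithelia and around vessels. Laminins, each a trimer of an alpha, a beta and a gamma chain, and type IV collagens form separate networks in the sheet, and nidogens bind to both. Integrins are surface receptors made of an alpha and a beta subunit that hold cells to this matrix or to other cells and signal from it. In the glomerulus, the filter of the kidney, the mature basement membrane holds laminin of alpha-5, beta-2 and gamma-1 chains, and podocytes, the filter's epithelial cells, attach to it through integrin alpha-3 beta-1. Integrins that contain alpha-v, with beta-6 or beta-8, are known for activating latent TGF-beta.

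Between 72087906 and 84786351 counts were assigned per library. Cdh11, the gene named by the genotype, had 953, 684, 1006 and 876 counts in the libraries labelled CDH11-/-, against 479, 338 and 932 in those labelled CDH11+/+. The gene was thus not lower in the libraries labelled knockout (log2 fold change 0.56, SE 0.25, edgeR quasi-likelihood adjusted p = 0.14). Without replicate 3 of the CDH11+/+ label the log2 fold change was 0.93 with an adjusted p of 0.0043. With the deposited normalization factors it was 0.079 (adjusted p = 0.888). Whole-gene counts include any exon that an allele leaves in place, and the sources used here do not give the deleted stretch, so these counts do not check the labels. All genotype names below are those of the labels. The share of counts from mitochondrial ribosomal RNA was 10.7% to 13.5% in libraries labelled CDH11-/- and 13.5% to 18.2% in those labelled CDH11+/+, and with all mitochondrial genome counts left out 6 members were called higher and 7 lower, beside the 6 and 6 given below. Replicate 3 of the CDH11+/+ label stood apart with a summed level of Y-linked genes of 64.7 CPM (counts scaled to library size), against 132.6 and 144.9 CPM in the other 2 of that label and 110.8 to 123.7 CPM in the 4 labelled CDH11-/-. Where leaving it out changed the call of a member, the value without it is given.

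Among the 41 tested genes, 12 passed the test at an adjusted p under 0.05 over all genes (edgeR's quasi-likelihood test, Benjamini-Hochberg adjustment, CDH11-/- over CDH11+/+). That is 29.3% of them, beside 29.7% of all 17964 genes tested, a share near that background. Of the 12, 6 were higher and 6 lower in the libraries labelled CDH11-/-, where 16.8% of all genes were called higher and 12.9% lower. The median log2 fold change was -0.07 in the family and -0.01 over all genes, and the members described below ran from -0.51 for Itgam to 1.11 for Itgb6. In 13 of the 41 the groups did not overlap, 7 above and 6 below, against 38.5% of all tested genes. The integrin and laminin sides differed in make-up. Of 25 integrin subunits, 4 were higher and 1 lower (20% called, median log2 fold change -0.07), whereas of 11 laminin chains 2 were higher and 5 lower (63.6% called, median -0.26). No test of that contrast was made. In bulk tissue a lower value can be fewer cells of a type or less RNA per cell, which cannot be told apart. The count of 6 lower members rests on single libraries: it was 3 without replicate 1 or 3 of the CDH11+/+ label, or without replicate 2 or 4 of the CDH11-/- label, and 11 without replicate 2 of the CDH11+/+ label. The count of 6 higher members was 3 without replicate 1 of the CDH11+/+ label. Calls of Itgb6, Lama3, Itga2b and Lamb1 held under all 14 alternatives.

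**Figure D1:**
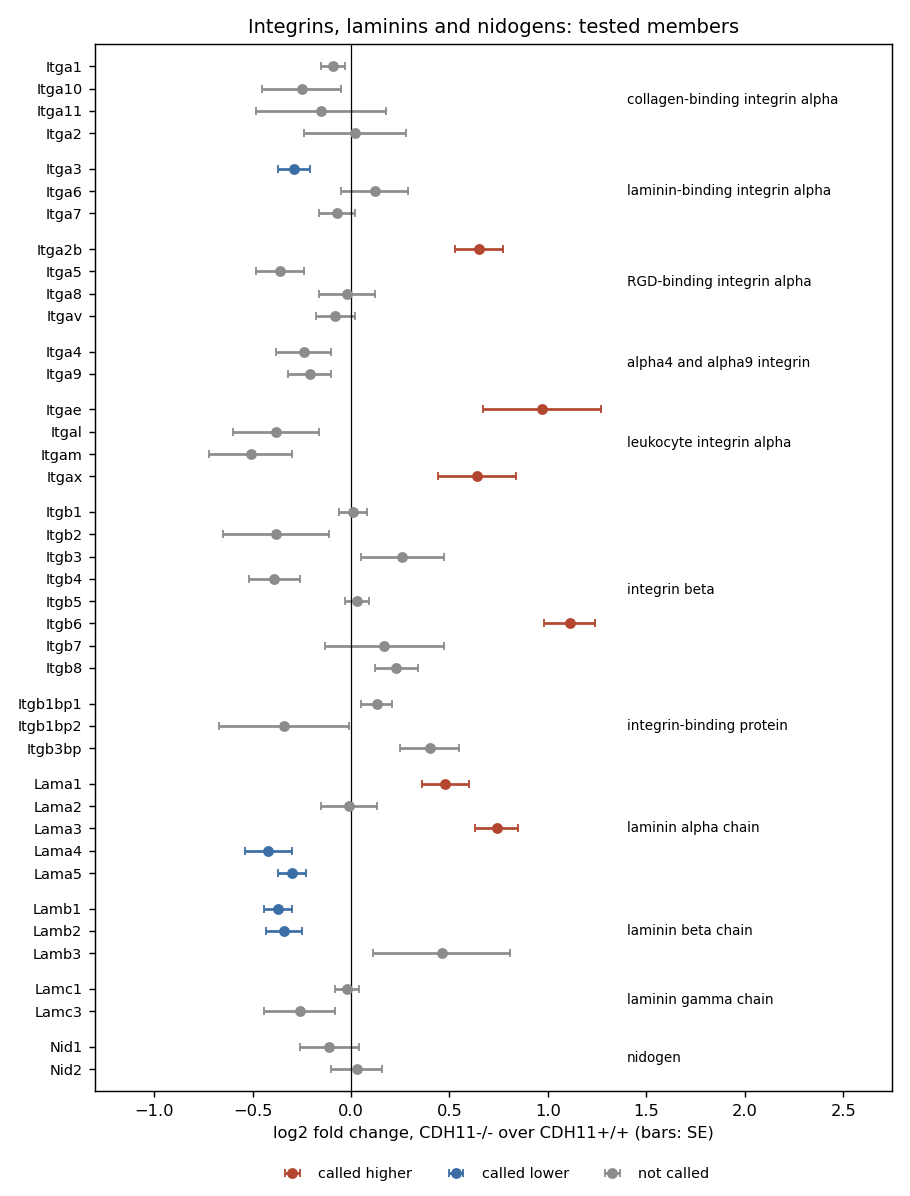
Log2 fold change (CDH11-/- over CDH11+/+) of 40 tested genes with its standard error, grouped by role; red points were called higher, blue ones lower, and grey ones did not pass. The 11 that passed run from Lama4 at -0.42 to Itgb6 at 1.11.

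The laminin alpha chains, which carry most of the integrin-binding sites of the trimer, moved in opposite directions. Lama3, an alpha chain of epithelial laminins (chromosome 18, 12333819 to 12583013, plus strand, mm10), had 62.4, 73.1, 73.8 and 64.1 CPM in the libraries labelled CDH11-/-, against 34.2, 44.8 and 43.5 CPM in those labelled CDH11+/+. Every library labelled CDH11-/- lay above every other one, with means of 68.3 ± 5.96 and 40.9 ± 5.77 CPM (SD, n = 4 and 3). This was a 1.67-fold higher level (log2 0.74, SE 0.11, adjusted p = 0.00124).

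Lama1, the alpha chain of early basement membranes that stays in tubular ones in the mouse (chromosome 17, 67697259 to 67822647, plus strand), had 33.3, 24.7, 27.2 and 29.5 CPM in libraries labelled CDH11-/- and 19.1, 23.9 and 18.7 CPM in libraries labelled CDH11+/+. The groups did not overlap, but replicate 2 of the first label and replicate 2 of the second nearly met. The level was 1.39-fold higher (log2 0.48, SE 0.12, adjusted p = 0.0157). That call was lost without replicate 1 of the CDH11+/+ label (adjusted p = 0.0716), without its replicate 3 (0.0541) and with the deposited normalization factors (0.0585).

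Lama5, the main alpha chain of the glomerular basement membrane and of most mature kidney membranes (chromosome 2, 180176373 to 180225859, minus strand), was at 187, 171, 169 and 169 CPM in the libraries labelled CDH11-/- and at 194, 228 and 221 CPM in those labelled CDH11+/+. It fell 1.23-fold with no overlap (log2 fold change -0.30, SE 0.07, adjusted p = 0.0141). Leaving out replicate 2 of the CDH11+/+ label put the adjusted p at 0.053.

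Lama4, the alpha chain of vessel basement membranes (chromosome 10, 38965515 to 39110188, plus strand), had 10.2, 9.42, 10.7 and 8.78 CPM in libraries labelled CDH11-/-, against 14.3, 10.6 and 14.3 CPM in libraries labelled CDH11+/+. It fell 1.34-fold (log2 -0.42, SE 0.12, adjusted p = 0.0269), and among the 12 called members it alone had overlapping groups. The call was lost without replicate 1 (adjusted p = 0.104) or 3 (0.0739) of the CDH11+/+ label and without replicate 2 (0.0651) or 4 (0.0637) of the CDH11-/- label.

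Lama2, the chain of muscle laminin, spanned 37.4 to 51.2 CPM in libraries labelled CDH11-/- and 36.2 to 53.4 CPM in those labelled CDH11+/+. Its groups overlapped fully, and its log2 fold change was -0.01 (adjusted p = 0.972).

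**Figure D2:**
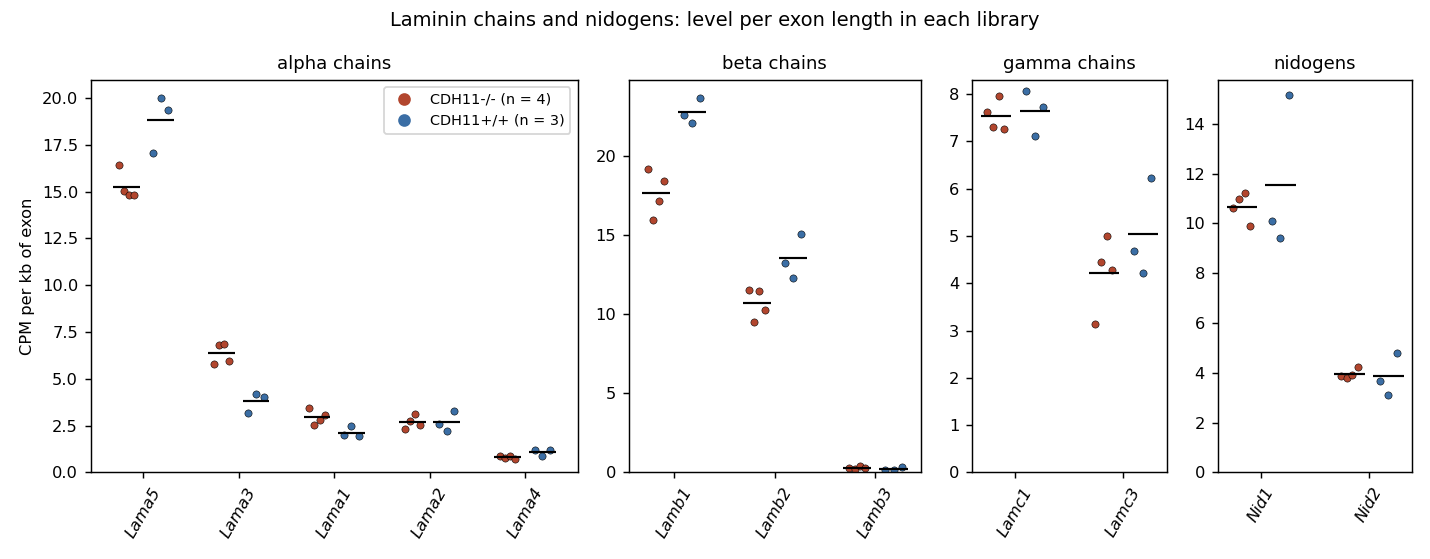
CPM per kb of exon for laminin chains and the 2 nidogens in each of the 7 libraries, libraries labelled CDH11-/- left of those labelled CDH11+/+; points are libraries and bars means. Lamb1 and Lama5 are the most abundant chains in both groups, and Lama3 lies above its CDH11+/+ levels in all 4 CDH11-/- libraries.

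Both abundant beta chains were lower. Lamb1 (chromosome 12, 31265234 to 31329644, plus strand), widespread in tubular membranes, had 190.3, 158, 170.1 and 183 CPM in the libraries labelled CDH11-/- and 225, 219 and 235 CPM in those labelled CDH11+/+. All 4 lay below the lowest library of the other label, a 1.29-fold fall (log2 -0.37, SE 0.07, adjusted p = 0.0062). Lamb2, whose loss causes nephrotic syndrome in mice and people (chromosome 9, 108479736 to 108490530, plus strand), had 70.1, 57.9, 69.8 and 62.4 CPM in libraries labelled CDH11-/-, against 80.6, 74.7 and 91.7 CPM in libraries labelled CDH11+/+. It too showed no overlap and fell 1.27-fold (log2 -0.34, SE 0.09, adjusted p = 0.0216). Its call did not hold without replicate 1 (0.0527) or 3 (0.0567) of the CDH11+/+ label, nor without replicate 2 (0.0522) or 4 (0.0527) of the CDH11-/- label.

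The third beta chain, Lamb3, was scarce, at 1.69, 1.51, 2.66 and 1.80 CPM in libraries labelled CDH11-/- and 1.15, 0.803 and 2.22 CPM in those labelled CDH11+/+. The groups overlapped because of the high replicate 3 of the CDH11+/+ label (log2 fold change 0.46, SE 0.35, adjusted p = 0.354). Without that library the log2 fold change was 0.97 and the adjusted p 0.0327. Lamb3 was picked for description after its values were seen.

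Lamc1, the gamma chain of most laminins, had 63.0, 60.5, 65.9 and 60 CPM in the libraries labelled CDH11-/- and 66.7, 58.9 and 64.0 CPM in those labelled CDH11+/+. The values intermix, and the 95% interval of the log2 fold change ran from -0.18 to 0.15 around -0.02 (adjusted p = 0.85). Lamc3, another gamma chain, ranged from 19.1 to 30.4 CPM in libraries labelled CDH11-/- and from 25.7 to 38.0 CPM in those labelled CDH11+/+ (log2 fold change -0.26, adjusted p = 0.313).

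Lama3 and Lamb3, whose products are known to assemble together in epithelial laminin, had uneven levels per length. In the libraries labelled CDH11-/- and CDH11+/+, Lama3 averaged 6.36 and 3.80 CPM per kb of exon, and Lamb3 averaged 0.290 and 0.210.

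Per kb of exon, the chains of a class can be set beside each other. Lama5 made up 54.4% ± 2.07 of alpha chain signal in the libraries labelled CDH11-/- and 66.0% ± 1.19 in those labelled CDH11+/+ (SD, n = 4 and 3). Lama3 made up 22.7% ± 1.97 and 13.3% ± 0.919, and Lama1 10.5% ± 1.28 and 7.46% ± 0.907, in the same order. The alpha chain total itself was 28.1 ± 0.756 CPM per kb under the CDH11-/- label and 28.5 ± 2.19 under the CDH11+/+ label, so its sum was nearly level while its make-up moved. The beta total was 28.7 ± 2.17 CPM per kb in libraries labelled CDH11-/- and 36.55 ± 2.32 in those labelled CDH11+/+, yet its split was steady, with Lamb1 at 61.7% ± 1.91 and 62.5% ± 1.76 of it. These shares are descriptions and carry no test.

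For 4 pairs of chains the log2 ratio within a library was compared by a 2-sided exact permutation test over the 35 splits of 7 libraries, which cannot give a p below 0.0286. The Lama5 to Lama1 ratio was 4.77, 5.89, 5.28 and 4.86 in libraries labelled CDH11-/- and 8.63, 8.12 and 10 in those labelled CDH11+/+. The groups were fully apart, with a difference in mean log2 ratio of -0.78 (exact p = 0.0286, 0.0571 adjusted over the 4 pairs). Lama5 was called lower and Lama1 higher in these same libraries, so this ratio is no separate evidence of a change. The pairs were chosen with earlier results of these data known, which the adjustment over the 4 pairs does not cover. The Lamb2 to Lamb1 ratio, which marks the change from immature to mature glomerular laminin in development, averaged -0.73 ± 0.11 and -0.76 ± 0.10 on the log2 scale under the CDH11-/- and CDH11+/+ labels (exact p = 0.714 before and after adjustment). A within-library ratio does not depend on how libraries are scaled to each other. With this number of libraries no ratio can pass 0.05 after adjustment unless several of the 4 reach the smallest p.

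**Figure D3:**
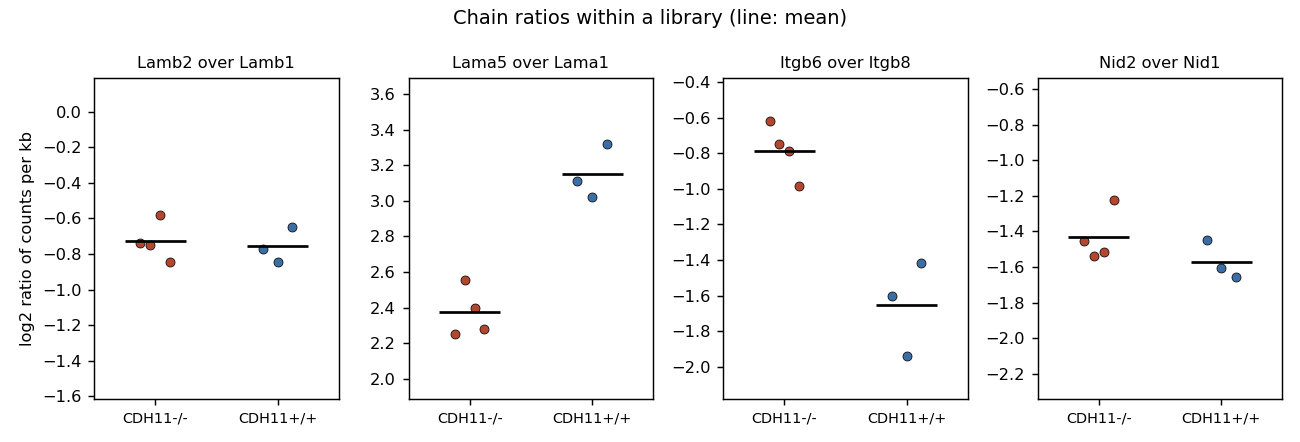
Log2 ratio of counts per kb of exon for 4 pairs of chains in each library, CDH11-/- left of CDH11+/+; points are libraries and bars means. Lama5 to Lama1 and Itgb6 to Itgb8 separate the labels fully (exact p = 0.0286 each), and Lamb2 to Lamb1 and Nid2 to Nid1 do not. The pairs were chosen with earlier results of these data known.

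Neither nidogen passed the test in edgeR, DESeq2 or limma-voom, nor had either an unadjusted p under 0.05 in edgeR. Nid1 had 73.7, 76.3, 77.8 and 68.6 CPM in the libraries labelled CDH11-/- and 70.0, 65.2 and 105 CPM in those labelled CDH11+/+, where replicate 3 was high (log2 fold change -0.11, SE 0.15, adjusted p = 0.616). Without that library the Nid1 log2 fold change was 0.12 (adjusted p = 0.233) and that of Nid2 was 0.21 (0.11). Nid2 had 20.04, 19.6, 20.3 and 21.9 CPM against 19.1, 16.0 and 24.9 CPM in the same order of labels. Both sets overlapped, and the Nid2 log2 fold change was 0.03 (SE 0.13, adjusted p = 0.872). Nid2 to Nid1 differed by 0.14 in mean log2 ratio (exact p = 0.257, 0.343 adjusted).

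Markers of several cell types were set beside the laminins. Of 7 podocyte markers tested, 5 were lower and their summed level was 295.74 to 403.40 CPM in the libraries labelled CDH11-/-, against 442.68 to 543.80 CPM in those labelled CDH11+/+. For 8 endothelial markers, 3 of them lower, the sums were 306.03 to 368.14 CPM under CDH11-/- and 379.14 to 481.32 CPM under CDH11+/+. Proximal tubule markers went the other way, with 5 of 8 higher and sums of 13713.86 to 15414.66 CPM under CDH11-/- and 8997.97 to 10298.36 CPM under CDH11+/+. The range for 8 mesangial, fibroblast and smooth muscle markers, 1 higher and 2 lower, was 290.74 to 353.85 CPM and 226.11 to 353.81 CPM in the same order. The share called was 71.4% for podocyte and 62.5% for proximal tubule markers. It was 37.5% for endothelial markers and 37.5% for mesangial, fibroblast and smooth muscle markers. Over all tested genes it was 29.7%, with 16.8% higher and 12.9% lower. No marker was at 0 in every library. The part of these cell type markers in the laminin values was not tested.

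Promoters are shown for the integrin that rose most and for the 3 lower laminin chains that the RefSeq promoter table holds, so that the sequences stand beside changes in both directions. Each is the 250 bases before the RefSeq start (GRCm38.p6, the assembly of mm10), read on the gene's strand, with matches to the searched motifs in capitals. The windows are chr2:60722604-60722853 (minus) for Itgb6, chr2:180225860-180226109 (minus) for Lama5, chr12:31265043-31265292 (plus) for Lamb1 and chr9:108479612-108479861 (plus) for Lamb2. The gene positions printed in this text come from another annotation, GENCODE M21, whose starts can differ from RefSeq. By those positions the windows of Itgb6, Lamb1 and Lamb2 reach into the gene, and that of Lama5 does not.
Itgb6: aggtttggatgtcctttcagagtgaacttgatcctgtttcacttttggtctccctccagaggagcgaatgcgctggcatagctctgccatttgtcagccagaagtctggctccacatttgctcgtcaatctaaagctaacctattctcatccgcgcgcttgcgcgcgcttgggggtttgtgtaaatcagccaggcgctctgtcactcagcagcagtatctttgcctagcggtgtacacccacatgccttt
Lama5: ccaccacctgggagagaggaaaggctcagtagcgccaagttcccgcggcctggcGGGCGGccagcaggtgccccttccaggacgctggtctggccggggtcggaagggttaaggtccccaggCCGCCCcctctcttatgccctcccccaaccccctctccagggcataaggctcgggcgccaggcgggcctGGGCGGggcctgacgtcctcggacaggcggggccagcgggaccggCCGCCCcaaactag
Lamb1: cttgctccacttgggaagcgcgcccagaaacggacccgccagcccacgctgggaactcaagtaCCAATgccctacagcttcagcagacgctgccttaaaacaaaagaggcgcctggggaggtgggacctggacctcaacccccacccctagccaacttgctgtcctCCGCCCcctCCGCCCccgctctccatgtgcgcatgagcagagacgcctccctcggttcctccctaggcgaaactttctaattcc
Lamb2: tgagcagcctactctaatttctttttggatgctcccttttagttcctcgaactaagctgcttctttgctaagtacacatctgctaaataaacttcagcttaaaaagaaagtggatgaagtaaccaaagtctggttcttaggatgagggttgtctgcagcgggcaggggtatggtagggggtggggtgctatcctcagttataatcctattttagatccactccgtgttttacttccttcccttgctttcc

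Base composition differed between these windows: G and C made up 52.0% of the bases for Itgb6, 72.4% for Lama5, 62.0% for Lamb1 and 43.6% for Lamb2. The letters GGGCGG (the GC box, bound by Sp1) were found on either strand 4 times for Lama5, 2 times for Lamb1 and 3 times for Itga3, and not for Lamb2 or Itgb6. Across the 27 members in the table, 9 held it, which is 33.3% beside 32.7% of all 32851 promoters. CCAAT was in 4 members (14.8%) and 33.8% of all promoters. TGANTCA, the AP-1 motif, was in 1 member (3.7%), Itgax, and 6.75% of all. TGTTCT, a core hexamer of the androgen response element, was in 6 members (22.2%) and 16.1% of all. The 4 motifs were searched on both strands and do not overlap one another in the printed windows. A match describes letters in this window and no more.

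Integrin beta subunits differ in the alpha subunits they pair with. Itgb6, an epithelial subunit that pairs with alpha-v alone (chromosome 2, 60598292 to 60722643, minus strand), was the highest riser of the family and has its promoter printed above. It had 113, 114, 92.3 and 90.1 CPM in the libraries labelled CDH11-/-, against 55.6, 40.97 and 46.4 CPM in those labelled CDH11+/+. The lowest of the first label was far above the highest of the second, with means of 103 ± 13.1 and 47.7 ± 7.42 CPM (SD, n = 4 and 3), 2.15-fold higher (log2 1.11, SE 0.13, adjusted p = 0.00051). Over the alternatives the log2 fold change lay between 0.84 and 1.22.

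Its only alpha partner was not called. Itgav, which also pairs with beta-1, beta-3, beta-5 and beta-8, had 224, 240.1, 223 and 259.9 CPM in libraries labelled CDH11-/- and 271, 268 and 213 CPM in libraries labelled CDH11+/+. Its groups overlapped, with a log2 fold change of -0.08 (95% interval -0.33 to 0.17, adjusted p = 0.559).

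Itgb8, also a TGF-beta-activating partner of alpha-v, had 272, 298, 248 and 277 CPM in the libraries labelled CDH11-/-, against 262, 244 and 193 CPM in those labelled CDH11+/+. The means were 274 ± 20.6 and 233 ± 36.1 CPM with overlapping groups, and the difference did not pass (log2 0.23, 95% interval -0.05 to 0.51, adjusted p = 0.141). Within a library, the Itgb6 to Itgb8 ratio per kb was 0.65, 0.596, 0.579 and 0.505 under CDH11-/- and 0.33, 0.261 and 0.374 under CDH11+/+. All 4 ratios of the first label lay above the 3 of the second, a difference of 0.87 in mean log2 ratio (exact p = 0.0286, 0.0571 adjusted). Itgb6 itself was fully apart in these same libraries, so this ratio is no separate evidence of a change.

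Itgb1, which pairs with the greatest number of alpha subunits, had 179.8, 187, 176 and 185 CPM in libraries labelled CDH11-/- and 198, 180.0 and 164 CPM in libraries labelled CDH11+/+. The groups overlapped and the log2 fold change was 0.01 (95% interval -0.18 to 0.20, adjusted p = 0.942). Itgb5, a vitronectin receptor with alpha-v, ran from 90.5 to 101 CPM under CDH11-/- and from 92.2 to 97.1 CPM under CDH11+/+ (log2 0.03, adjusted p = 0.792). Per kb of exon, Itgb1 was the most abundant beta subunit, at 44.6 CPM per kb in libraries labelled CDH11-/- and 44.3 in those labelled CDH11+/+. Itgb6 ranked after Itgb5 and Itgb8 as well, at 14.4 and 6.70 CPM per kb in the same order. Its share of all beta subunit signal was 12.6% ± 1.29 under CDH11-/- and 6.55% ± 0.727 under CDH11+/+.

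Itgb4, the hemidesmosome subunit, had 7.11, 4.90, 6.38 and 6.39 CPM in libraries labelled CDH11-/-, against 8.62, 7.25 and 8.48 CPM in those labelled CDH11+/+. Its groups did not overlap, but it missed the threshold (log2 -0.39, SE 0.13, adjusted p = 0.0522) and passed under 9 of the 14 alternatives, among them those without replicate 2 of the CDH11+/+ label (0.0497) or replicate 1 of the CDH11-/- label (0.0364). It was picked after its values were seen. Itgb3, the platelet and vitronectin receptor subunit (log2 0.26, adjusted p = 0.388), and Itgb7, a lymphocyte subunit (0.17, adjusted p = 0.711), were not called.

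Of 8 distal nephron and collecting duct markers tested, 3 were called, all lower (37.5%, beside 29.7% of all genes called and 12.9% called lower). The log2 fold change was below 0 in 7 and above it in Calb1 (0.32, adjusted p = 0.138). Their sums were 4437.51 to 5019.53 CPM in the libraries labelled CDH11-/- and 6144.82 to 6740.50 CPM in those labelled CDH11+/+. The part of tubular markers in the Itgb6 values was not tested.

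**Figure D4:**
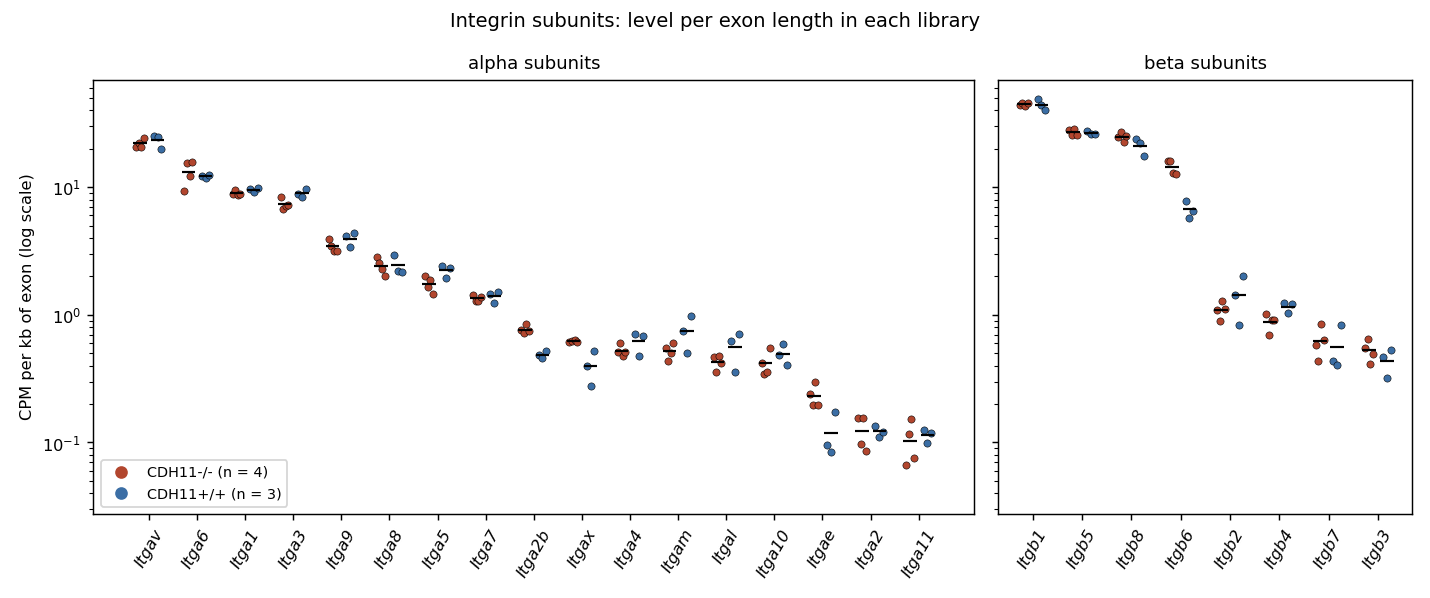
CPM per kb of exon for the tested integrin alpha and beta subunits in each library on a log axis, CDH11-/- left of CDH11+/+; points are libraries and bars means. Itgb1, Itgb5 and Itgb8 overlap between the labels, and Itgb6 does not.

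Among the laminin-binding alpha subunits, Itga3 passed the test. This partner of beta-1 in podocytes and tubules (chromosome 11, 95044474 to 95076801, minus strand) had 47.6, 38.8, 40.97 and 41.3 CPM in libraries labelled CDH11-/-, against 50.8, 48.2 and 55.5 CPM in libraries labelled CDH11+/+. The highest of the first label lay just under the lowest of the second, a 1.22-fold fall (log2 -0.29, SE 0.08, adjusted p = 0.0262). The call was lost without replicate 1 (adjusted p = 0.0612) or 3 (0.0675) of the CDH11+/+ label and without replicate 2 (0.0642), 3 (0.0701) or 4 (0.0591) of the CDH11-/- label. Podocyte markers, with 5 of 7 lower as given above, moved the same way, and their part in this value was not tested.

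Itga6, the other main laminin receptor subunit, had 84.3, 139, 109 and 142 CPM in the libraries labelled CDH11-/- and 109.7, 106 and 113 CPM in those labelled CDH11+/+. The spread under the CDH11-/- label covered the whole range of the other (log2 0.12, SE 0.17, adjusted p = 0.634). Itga7, a laminin receptor of muscle, ran from 10.3 to 11.6 CPM under CDH11-/- and from 10.1 to 12.2 CPM under CDH11+/+ (log2 -0.07, adjusted p = 0.612).

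None of the 4 collagen-binding alpha subunits passed in edgeR, DESeq2 or limma-voom, nor at an unadjusted p under 0.05 in edgeR. Itga1, of these the one with at least 10 CPM, had 165, 176, 161 and 166 CPM in libraries labelled CDH11-/-, against 179.5, 171 and 183 CPM in those labelled CDH11+/+ (log2 -0.09, SE 0.06, adjusted p = 0.287). The other members gave log2 fold changes of 0.02 for Itga2 (adjusted p = 0.958), -0.25 for Itga10 (0.389) and -0.15 for Itga11 (0.768). Of the exonic bases of Itga10, 33.5% overlap a same-strand gene model, so its counts are uncertain.

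Of the alpha subunits that bind the RGD sequence of matrix proteins, Itga2b rose. This platelet subunit (chromosome 11, 102453297 to 102470122, minus strand) had 4.13, 3.91, 4.63 and 4.04 CPM in the libraries labelled CDH11-/-, against 2.66, 2.50 and 2.83 CPM in those labelled CDH11+/+. The groups were well apart, a 1.57-fold higher level (log2 0.65, SE 0.12, adjusted p = 0.00376). Only 2 of 5 platelet markers were abundant enough to test: Ppbp was higher (log2 0.86, adjusted p = 0.0247) and Pf4 was not called (0.05, adjusted p = 0.941). The summed level of the 5 was 1.13 to 1.65 CPM under CDH11-/- and 0.83 to 1 CPM under CDH11+/+, and its part in the Itga2b value was not tested.

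Itga8, the nephronectin receptor subunit of mesangial and interstitial cells, had 20.7, 18.9, 16.8 and 14.9 CPM in libraries labelled CDH11-/-, against 21.8, 16.4 and 15.9 CPM in libraries labelled CDH11+/+. Its groups overlapped (log2 -0.02, SE 0.14, adjusted p = 0.945). Itga5, the classic fibronectin receptor subunit, had 9.89, 8.15, 9.22 and 7.18 CPM under CDH11-/- and 11.9, 9.60 and 11.5 CPM under CDH11+/+. It missed the threshold (log2 -0.36, SE 0.12, adjusted p = 0.0578), and was picked after its values were seen. It passed under 5 of the 14 alternatives, including those without replicate 2 of the CDH11+/+ label (0.0397) or replicate 1 of the CDH11-/- label (0.0357).

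Of the alpha-4 and alpha-9 subunits, receptors for VCAM-1, osteopontin and tenascin, neither passed, nor did either have an unadjusted p under 0.05 in edgeR or a call in DESeq2 or limma-voom. Itga9 had 30.2, 26.5, 24.3 and 24.5 CPM in the libraries labelled CDH11-/- and 32.0, 25.9 and 33.4 CPM in those labelled CDH11+/+ (log2 -0.21, SE 0.11, adjusted p = 0.175). Itga4 gave a log2 fold change of -0.24 (adjusted p = 0.233), and -0.40 (0.034) without replicate 2 of the CDH11+/+ label.

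Leukocyte integrin alpha subunits were low and split. Itgae, which marks intraepithelial T cells and some dendritic cells (chromosome 11, 73090583 to 73147446, plus strand), had 93, 64, 118 and 72 counts in libraries labelled CDH11-/-, against 31, 29 and 69 counts in libraries labelled CDH11+/+. In CPM these were 1.10, 0.894, 1.36 and 0.902 against 0.439, 0.388 and 0.797, with no overlap and a 1.95-fold higher level (log2 0.97, SE 0.30, adjusted p = 0.0387). Its call was lost on leaving out replicate 1 (adjusted p = 0.137) or 2 (0.112) of the CDH11+/+ label, or replicate 1 (0.074), 2 (0.056) or 3 (0.103) of the CDH11-/- label.

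Itgax, the CD11c subunit of dendritic cells and macrophages (chromosome 7, 128129547 to 128150657, plus strand), had 2.94, 2.98, 3.06 and 2.96 CPM in the libraries labelled CDH11-/- and 1.91, 1.34 and 2.50 CPM in those labelled CDH11+/+. The 4 values of the first label were nearly equal and above the 3 others, 1.56-fold higher (log2 0.64, SE 0.20, adjusted p = 0.0378). It did not pass without replicate 1 (0.107) or 2 (0.0792) of the CDH11+/+ label, nor without replicate 1 (0.067), 2 (0.079), 3 (0.0839) or 4 (0.0678) of the CDH11-/- label.

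Itgam, Itgal and Itgb2, subunits of the macrophage, neutrophil and lymphocyte integrins, were below 0 and not called, and are named after their values were seen. Itgam had 2.78, 2.19, 2.52 and 3.01 CPM in libraries labelled CDH11-/-, against 3.76, 2.54 and 4.90 CPM in libraries labelled CDH11+/+, which overlap (log2 -0.51, adjusted p = 0.105). Of its exonic bases, 68.7% overlap a same-strand gene model, so its counts are uncertain. Itgb2 had 3.35, 2.72, 3.91 and 3.38 CPM against 4.37, 2.54 and 6.16 CPM in the same order (log2 -0.38, adjusted p = 0.315), and the log2 fold change of Itgal was -0.38 (adjusted p = 0.232). In each of these, replicate 2 of the CDH11+/+ label was the lowest of its label, and without it Itgam (adjusted p = 0.0195), Itgal (0.0229) and Itgb2 (0.0353) passed the test. Without replicate 3 of that label the log2 fold changes were -0.27 for Itgam (adjusted p = 0.349), -0.19 for Itgal (0.584) and -0.05 for Itgb2 (0.887).

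Among 15 leukocyte markers 3 were called, a smaller share than the 29.7% of all genes. The log2 fold change was below 0 in 11 and above it in 4. Csf1r was higher (log2 0.85, adjusted p = 0.0269) and the neutrophil genes S100a8 (-2.38, adjusted p = 0.0213) and S100a9 (-2.11, adjusted p = 0.0218) were lower. S100a8 and S100a9 had few counts, 4 to 28 and 10 to 46 under CDH11-/-, against 35 to 101 and 49 to 160 under CDH11+/+. Uncalled markers, named after their values were seen, included Adgre1 (-0.64), C1qa (-0.28), C1qb (-0.33) and Cd68 (0.18). Summed over the 15, levels were 80.56 to 100.24 CPM in the libraries labelled CDH11-/- and 50.10 to 111.82 CPM in those labelled CDH11+/+. Csf1r alone ran from 38.01 to 47.63 CPM under CDH11-/- and from 14.67 to 30.09 CPM under CDH11+/+. The part of these markers in the leukocyte integrin values was not tested.

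**Figure D5:**
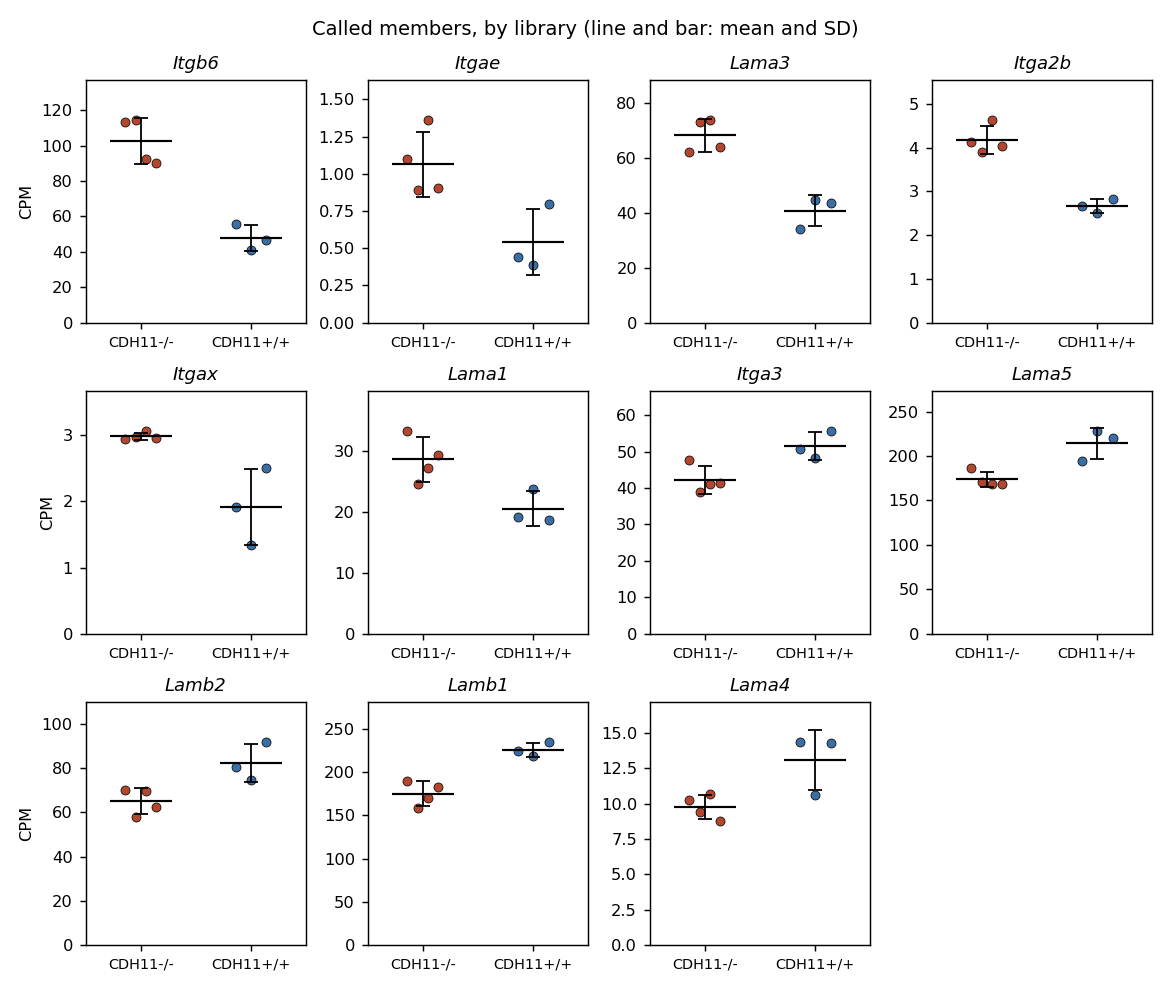
CPM of 11 called genes in each of the 7 libraries, CDH11-/- left of CDH11+/+; points are libraries, lines group means and error bars SDs. The groups are apart in every panel but Lama4, where replicate 3 of CDH11-/- lies just above replicate 2 of CDH11+/+.

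The 3 integrin-binding proteins were not called in edgeR, DESeq2 or limma-voom, and 1 of them, Itgb3bp, had an unadjusted p under 0.05 in edgeR. Itgb1bp1, which binds the beta-1 tail, had 11.2, 10.2, 11.3 and 11.98 CPM in libraries labelled CDH11-/- and 9.85, 9.87 and 10.96 CPM in those labelled CDH11+/+ (log2 0.13, adjusted p = 0.281). Itgb3bp had 2.39, 2.86, 2.38 and 2.16 CPM against 2.01, 1.82 and 1.73 CPM in the same order. Its groups did not overlap, yet it missed the threshold (log2 0.40, SE 0.15, adjusted p = 0.0761), and it was picked after its values were seen. Itgb1bp2 gave -0.34 (adjusted p = 0.479).

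Inside the cell, integrins connect to actin through a set of adaptors and kinases. Of 30 such genes tested, 10 were called (33.3%, near the 29.7% of all genes). Of these, 8 were lower and 2 higher, where 12.9% of all genes were called lower and 16.8% higher. The median log2 fold change was -0.09. Lower were Kank2, a talin-binding protein (30.7 ± 1.39 CPM under CDH11-/- and 42.3 ± 2.33 CPM under CDH11+/+, log2 -0.46, adjusted p = 0.000899), and the integrin activator Fermt2 (51.4 ± 1.53 and 67.6 ± 3.32 CPM, -0.40, adjusted p = 0.00125). The focal adhesion proteins Vcl (77.2 ± 4.43 CPM under CDH11-/- and 104 ± 6.26 CPM under CDH11+/+, -0.43, adjusted p = 0.00193) and Zyx (36.0 ± 2.66 and 47.7 ± 2.69 CPM, -0.41, adjusted p = 0.00353) were lower as well. So was the focal adhesion kinase gene Ptk2, at 53.8 ± 2.58 CPM under CDH11-/- and 67.5 ± 3.17 CPM under CDH11+/+ (-0.33, adjusted p = 0.00411). The kinase gene Src was higher, at 38.8 ± 0.872 and 31.6 ± 0.647 CPM in the same order (0.29, adjusted p = 0.00342). Its fellow riser was the kinase gene Ptk2b, a relative of Ptk2 (0.25, adjusted p = 0.0186), named after its values were seen. SDs are over n = 4 and 3. Without replicate 1 of the CDH11+/+ label Ptk2b did not pass (adjusted p = 0.0868).

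Of 20 other basement membrane genes tested, 11 were called (55.0%, beside 29.7% of all genes), 9 higher and 2 lower (beside 16.8% and 12.9%), with a median log2 fold change of 0.20. Fras1 and Frem2, which form an epithelial anchoring complex, had 107 ± 9.65 CPM under CDH11-/- and 53.0 ± 4.35 CPM under CDH11+/+ (log2 1.01, adjusted p = 0.000108), and 40.1 ± 4.39 and 21.9 ± 2.50 CPM (0.87, adjusted p = 0.00052). Type IV collagen chains of the mature glomerular membrane were higher, in whole-kidney RNA that does not place the change in the glomerulus. Col4a3 had 325 ± 23.3 CPM under CDH11-/- and 208 ± 25.7 CPM under CDH11+/+ (0.64, adjusted p = 0.0014), and Col4a4 had 358 ± 17.97 and 273 ± 16.1 CPM (0.39, adjusted p = 0.00348). Tinag, a tubular basement membrane protein, was at 67.2 ± 5.17 CPM under CDH11-/- and 48.6 ± 0.672 CPM under CDH11+/+ (0.47, adjusted p = 0.00133). Col15a1, a membrane-linked collagen, was at 40.0 ± 5.78 and 18.1 ± 4.46 CPM in the same order (1.14, adjusted p = 0.00216). Both lower genes, the laminin alpha-5 receptor Bcam (-0.43, adjusted p = 0.0495) and Tinagl1 (-0.58, adjusted p = 0.0463), stood at the threshold and are named after their values were seen. Without replicate 1 or 3 of the CDH11+/+ label the adjusted p was 0.152 and 0.141 for Bcam and 0.0852 and 0.131 for Tinagl1. Without replicate 3 or 4 of the CDH11-/- label it was 0.0714 and 0.097 for Bcam and 0.0715 and 0.0966 for Tinagl1, and without replicate 2 of that label it was 0.0717 for Tinagl1.

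Ligands of integrins other than laminin had 16 tested members of 18, Vtn and Madcam1 being too low, and 5 were called (31.2%, beside 29.7% of all genes). Of these, 1 was higher and 4 were lower (beside 16.8% and 12.9% of all genes), and the median log2 fold change was -0.45. Thbs1, a matricellular activator of TGF-beta, had 60.2 ± 6.35 CPM under CDH11-/- and 110.2 ± 27.0 CPM under CDH11+/+ (log2 -0.87, adjusted p = 0.00397). Ccn1, another matricellular protein, had 19.1 ± 7.29 and 50.5 ± 1.21 CPM in the same order (-1.40, adjusted p = 0.00706). Cdh1, the epithelial cadherin that integrin alpha-E binds, was at 157 ± 14.6 CPM under CDH11-/- and 205 ± 22.5 CPM under CDH11+/+ (-0.38, adjusted p = 0.0157). It did not pass without replicate 1 (0.0572) or 2 (0.0539) of the CDH11+/+ label. Tgfb3, whose latent form binds alpha-v integrins, was at 2.58 ± 0.54 and 3.93 ± 0.56 CPM (-0.60, adjusted p = 0.0318). Fbn1, the microfibril protein, was higher at 34.8 ± 3.50 CPM under CDH11-/- and 26.5 ± 4.52 CPM under CDH11+/+ (0.39, adjusted p = 0.0401). Among the ligand genes the weakest calls were these last ones. Tgfb3 lost its call without replicate 1 (adjusted p = 0.125) or 2 (0.052) of the CDH11+/+ label and without replicate 2 (0.0706), 3 (0.0788) or 4 (0.0669) of the CDH11-/- label. Fbn1 lost it without replicate 1 (0.088) or 2 (0.0948) of the CDH11+/+ label and without replicate 1 (0.0857), 3 (0.083) or 4 (0.0737) of the CDH11-/- label. The count of lower ligands was 2 without replicate 1 of the CDH11+/+ label, and the count of higher ones ranged from 0 to 3 on leaving out a library, with 3 without replicate 3 of the CDH11+/+ label. SDs are over n = 4 and 3.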

How the data were processed

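Whole-kidney total RNA was made into directional libraries, per the labels' protocols, and 4 libraries labelled CDH11-/- were compared with 3 labelled CDH11+/+. The authors' expected counts (estimated reads per gene) were deposited as whole numbers, so no rounding was needed. DRAGEN, DESeq2 and mm10 are named in the submitters' processing notes without versions, and no source used here gives the annotation or the strand setting. A table of normalized values, deposited as a signal per gene, holds values that differ from the counts by factors particular to each gene and library. It served only as an alternative.

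Symbols, positions and exon lengths came from GENCODE M21, which matched 42170 of 42256 identifiers. Genes were filtered with filterByExpr and scaled by TMM, which left 17964, and were tested with edgeR 4.0.16 (R 4.3.3), the robust quasi-likelihood test, 2-sided, with no covariate. Calls needed an adjusted p under 0.05 (Benjamini-Hochberg, over all tested genes). CPM used TMM-scaled library sizes, and levels were compared between genes only as CPM per kb of exon. The biological coefficient of variation was 15.2%. Intervals of 95% came from the SE with 5 degrees of freedom. The fit was also run on simulated counts, whose smallest built-in change was larger than that of several called members. Its outcome is not used here. Alternatives were DESeq2 1.42.0, limma-voom (limma 3.58.1), relative log expression factors, other filters, counts without the mitochondrial genome, the deposited factors and the omission of each library. Summaries and exact permutation tests were computed in Python 3.11.15 with pandas 2.3.3, and SciPy 1.17.1 gave the t quantile of the intervals.

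Replicate numbers follow the order of deposit. The labels do not say more of how mice were bred or handled. The p-values weigh the difference between labels against the spread within them, over these 7 libraries. Any difference in breeding or handling between the labels could not be told apart from genotype. Named were all called members, uncalled members with a mean of at least 10 CPM, Itga8, Itgav, Itgb6 and Itgb8, up to 6 called genes of each list and Cdh11. Other named genes are marked as picked later, and 1 member that meets the rule is not reported here. The members, lists, pairs and alternatives were chosen with earlier results of these data known. How reads were split between overlapping genes was not given. Besides Itgam and Itga10, no member shares more than 11.4% of its exonic bases with another gene.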

Additional observations from a re-analysis of the deposited data

Results flagged for a closer look

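Lama5 in replicate 1 of the libraries labelled CDH11-/- stood apart from the other 3 of that label, at 187 CPM beside 169 to 171 CPM, a gap wider than the Dixon limit at the 95% level for 4 values. That library still lay below the 194 CPM of the lowest library labelled CDH11+/+. Each of the tested genes and chain ratios was examined in the 4 libraries of that label, and chance alone marks about 1 in 20 such groups.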

How the results depend on the processing

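No paired analysis was possible because the labels give the mice no numbers of their own, and replicate numbers here follow the order of deposit. No called member changed direction in any of the 14 alternatives that could test it. The cell type markers were not run under them, and Bcam, Tinagl1 and Ptk2b only with each library left out. Scaling moved the median log2 fold change of all genes by less than 0.1. The TMM, relative log expression and DESeq2 scalings keep that median near no change by design, so it does not show how members depend on scaling. Leaving out each library gave 3 to 6 higher and 3 to 11 lower members, 1 to 3 higher and 8 to 11 lower adhesion genes, 7 to 10 higher and 0 to 3 lower basement membrane genes, and 0 to 3 higher and 2 to 6 lower ligands. The count of higher ligands was 2 with DESeq2 and 2 with limma-voom, and 0 with a mean of at least 1 CPM, with no low-count filter and with the deposited factors. The count of lower basement membrane genes was 0 with no low-count filter. Cdh11 passed with limma-voom (log2 fold change 0.747, adjusted p = 0.0206), and ranged from 0.304 to 0.933 on leaving out each library. With the deposited factors its log2 fold change was 0.079 (adjusted p = 0.888). Of the 12 called members, 5 kept their call in all alternatives that could test them and 7 lost it in at least 1. Of the 4 chain ratios, Lamb2 to Lamb1 gave differences of -0.02 to 0.08 on leaving out each library, and the others kept their direction. The causes of these changes were not tested. Depth limits what low genes can show: Itgae rests on 64 to 118 counts in libraries labelled CDH11-/- and 29 to 69 in those labelled CDH11+/+.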
